A study of Mus musculus with 50 samples.

Results

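The miR-17-92 cluster is a set of microRNAs (miRNAs) cut from a single transcript, Mir17hg, and 7 of its mature miRNAs were followed here in mouse blood serum. They were mmu-miR-17-5p, mmu-miR-17-3p, mmu-miR-18a-5p, mmu-miR-19a-3p, mmu-miR-19b-3p, mmu-miR-20a-5p and mmu-miR-92a-3p, written below without the species prefix. They were chosen by exact name, and all 7 were found among 1892 entries of the count table, 925 of which had a count.

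Small RNA was sequenced from serum of C57BL/6 mice aged 8 to 12 weeks, in 5 groups of 5 libraries. MCAO mice underwent 30 min of closure of the left middle cerebral artery by a filament, which models ischemic stroke, and were bled after 150 min of reperfusion, whereas in MCAO_Sham mice no filament entered the artery. ICH mice had 20 µL of their own blood infused into the striatum, a model of intracerebral hemorrhage, ICH_Sham mice had the needle placed without an injection, and Naive mice were left untreated. A bleeding time is stated for MCAO only, and no label ties a library to an animal of its own, so p-values measure the spread between libraries, which may be technical.

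A miRNA guides a silencing complex to messenger RNAs, mainly through its seed, which is bases 2 to 8 from the 5′ end. The miR-17-92 cluster is known as a proliferative and anti-apoptotic miRNA cluster that the transcription factor Myc activates, and it is needed for normal B cell, heart and lung development in mice. Its members fall into seed families that repress different sets of messenger RNAs, and Bim (Bcl2l11) is a known target of several members. In blood, miR-92a-3p is also abundant in red cells, and serum miRNAs are a mixture released by blood cells and tissues, so fewer contributing cells and less miRNA released per cell cannot be told apart.

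The mature sequences show which members could act on the same targets and which reads are hard to separate. Capitals mark the seed, and the sequences are those of RefSeq (GRCm38.p6), which held all 7 members.
miR-17-5p: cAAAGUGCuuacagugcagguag
miR-20a-5p: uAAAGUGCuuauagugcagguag
miR-18a-5p: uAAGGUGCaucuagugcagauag
miR-19a-3p: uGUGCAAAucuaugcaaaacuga
miR-19b-3p: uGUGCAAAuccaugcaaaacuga
miR-92a-3p: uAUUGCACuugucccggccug
miR-17-3p: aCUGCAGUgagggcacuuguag

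miR-17-5p and miR-20a-5p share the seed AAAGUGC and differ at 2 of 23 bases (C1U and C12U, counted from the 5′ end of miR-17-5p). miR-19a-3p and miR-19b-3p share the seed GUGCAAA and differ at 1 base (U11C, counted from the 5′ end of miR-19a-3p). The seeds of miR-18a-5p, miR-92a-3p and miR-17-3p each occur in 1 member. miR-106a-5p, from a related cluster, differs from miR-17-5p by U10A alone. How the authors treated reads that match several miRNAs is not given in the sources used here, so values of such near-identical members are uncertain.

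Mir17hg is annotated as a long intergenic non-coding RNA on the plus strand of chromosome 14, from 115042879 to 115046727 (GENCODE M21, GRCm38). Its 6 hairpins lie within 836 bases, from 115043671 to 115044506, and all are inside an exon of its 1 annotated transcript. Identical mature miR-19b-3p and miR-92a-3p also come from Mir19b-2 and Mir92-2 on chromosome X, so their counts cannot be assigned to chromosome 14 alone.

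miR-92a-3p made up most of the cluster's signal. Over 25 libraries it had 9857 counts, which was 82.2% of the 11997 counts of the 7 members, and it ranked at place 54 among entries with a count. miR-20a-5p followed with 937 counts, miR-19b-3p with 594 and miR-17-5p with 469, and each of these 4 had counts in every library. miR-19a-3p had 93 counts, miR-17-3p 24 and miR-18a-5p 23. By seed, AAAGUGC summed to 1406 counts and GUGCAAA to 687. Ligation and amplification differ between miRNA sequences, so these counts order the reads and may not order the molecules.

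The other arms of the same hairpins were rare. miR-18a-3p had 27 counts, close to the 23 of the member miR-18a-5p. miR-92a-1-5p had 5 counts and miR-19b-1-5p 2. miR-19a-5p, miR-20a-3p, miR-92a-2-5p and miR-19b-2-5p had 0 counts among all 2678832, where 3 counts, the limit that a count of 0 allows, correspond to 1.12 CPM (counts scaled to the library size). Such limits cover counting error only.

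Library totals spanned 38393 to 315646 counts and differed between groups, from 72222 to 315646 in MCAO to 38393 to 83564 in Naive. A filter on low counts kept 199 miRNAs, among them miR-17-5p, miR-19b-3p, miR-20a-5p and miR-92a-3p. Levels below are CPM with a factor per library from edgeR's trimmed mean method (TMM). Differences are log2 fold changes ± standard error, tested by quasi-likelihood in edgeR, and adjusted p-values follow Benjamini and Hochberg over the 199 miRNAs. The 3 rarer members stayed under the filter and are given as counts. The 3 libraries with the lowest TMM factors were MCAO 2 (0.634), Naive 2 (0.723) and ICH_Sham 1 (0.728).

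**Figure D1:**
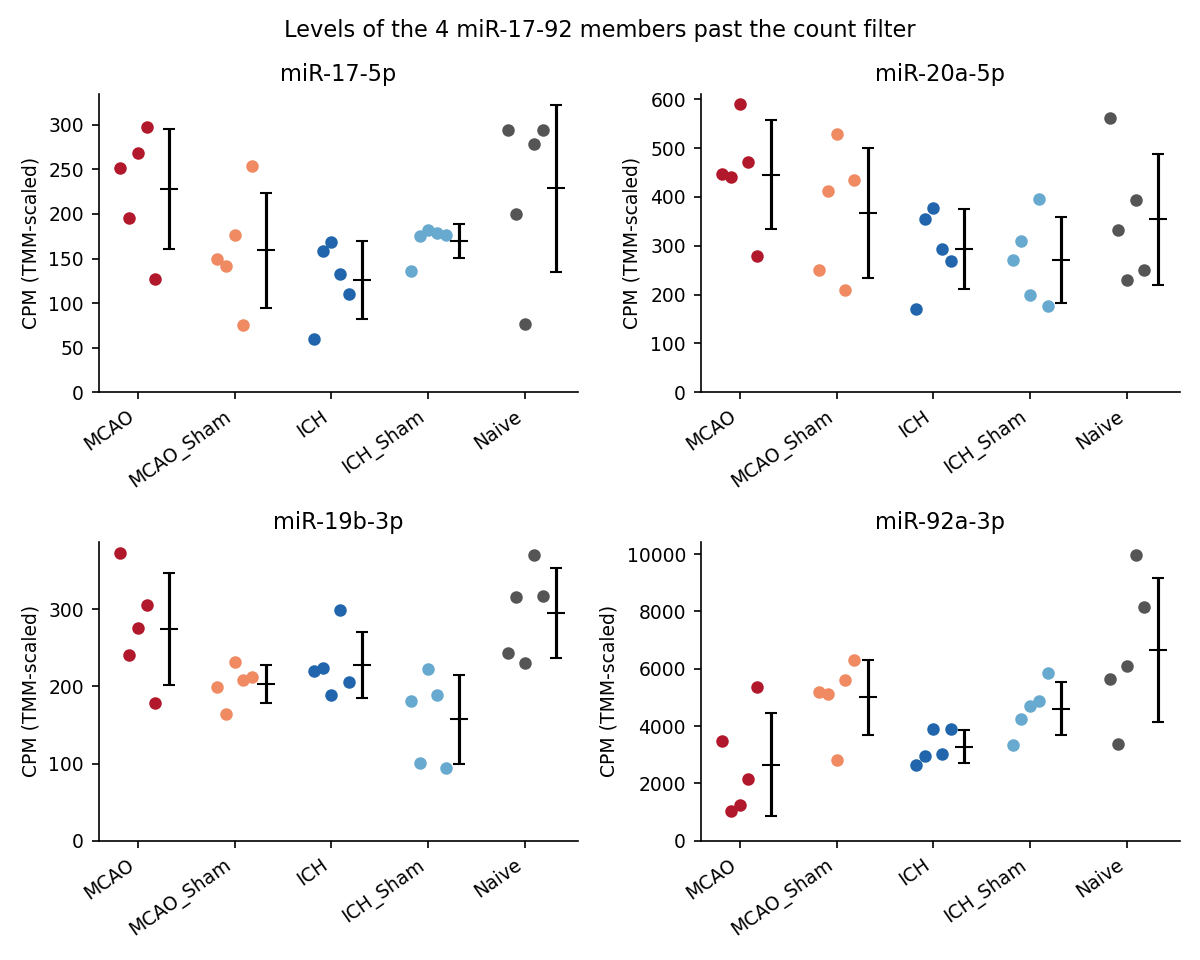
Level of each member past the count filter (vertical axis, CPM) in the 25 libraries by group; each point is a library, and the bar beside it shows mean and SD (n = 5). miR-92a-3p lies lowest in MCAO (2658 CPM on average) and highest in Naive (6653 CPM), while the other 3 members do not follow that order.

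miR-92a-3p, which red cells hold in quantity, was lower in both stroke models than in untreated mice. In Naive libraries 1 to 5 it was at 5661, 3375, 6099, 9970 and 8158 CPM. In MCAO libraries 1 to 5 it was at 3475, 1032, 1235, 2165.5 and 5380 CPM. MCAO libraries 2, 3 and 4 stood below every Naive library, while MCAO 1 and MCAO 5 stood above Naive 2, so the groups overlapped. The level fell by 1.33 ± 0.33 on the log2 scale in MCAO against Naive (adjusted p = 0.00558), a 2.51-fold lower level, and 23 of the 25 pairs of libraries had the MCAO library lower.

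The call between MCAO and Naive stood among many, since 61 of the 199 miRNAs passed in that comparison (30.7%), 26 of them lower (13.1%). miR-92a-3p was the 1 member of the 4 tested that did. In ICH libraries 1 to 5 the level was 2648, 2964, 3891, 3029 and 3893 CPM. ICH 3 and ICH 5 lay above Naive 2, and every ICH library lay below Naive 1, 3, 4 and 5. The level fell by 1.02 ± 0.33 on the log2 scale in ICH against Naive (adjusted p = 0.0373), a 2.02-fold lower level, where 29 of the 199 miRNAs passed (14.6%) and 12 were lower (6.03%). Both comparisons use the same Naive libraries. The ICH call was lost without ICH 1, ICH 2, ICH 4, Naive 4 or Naive 5 (adjusted p from 0.0734 to 0.1201), while the MCAO call held in all 25 fits that left out 1 library. Many of these fits left out a library of another group, which keeps all MCAO and Naive libraries in place.

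The level of miR-92a-3p varied with the library total, which also differed between these groups. Its counts spanned 161 to 595, a 3.70-fold range, over totals that spanned an 8.22-fold range. MCAO 3 had 161 counts of it among 130309, and the shallowest library, Naive 5, had 360 among 38393. Across the 25 libraries its log2 CPM had a Pearson correlation of -0.82 with the log2 total, the lowest of the 199 miRNAs, whose median was 0.09. The total is also the denominator of the CPM, so these points are not independent. In a fit with the log2 total as a covariate, added after the data were seen, the difference was -0.37 ± 0.29 in MCAO (adjusted p = 0.552) and -0.07 ± 0.29 in ICH (adjusted p = 0.936), and neither passed. Since the totals differed between these groups, group and depth cannot be told apart for miR-92a-3p.

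**Figure D2:**
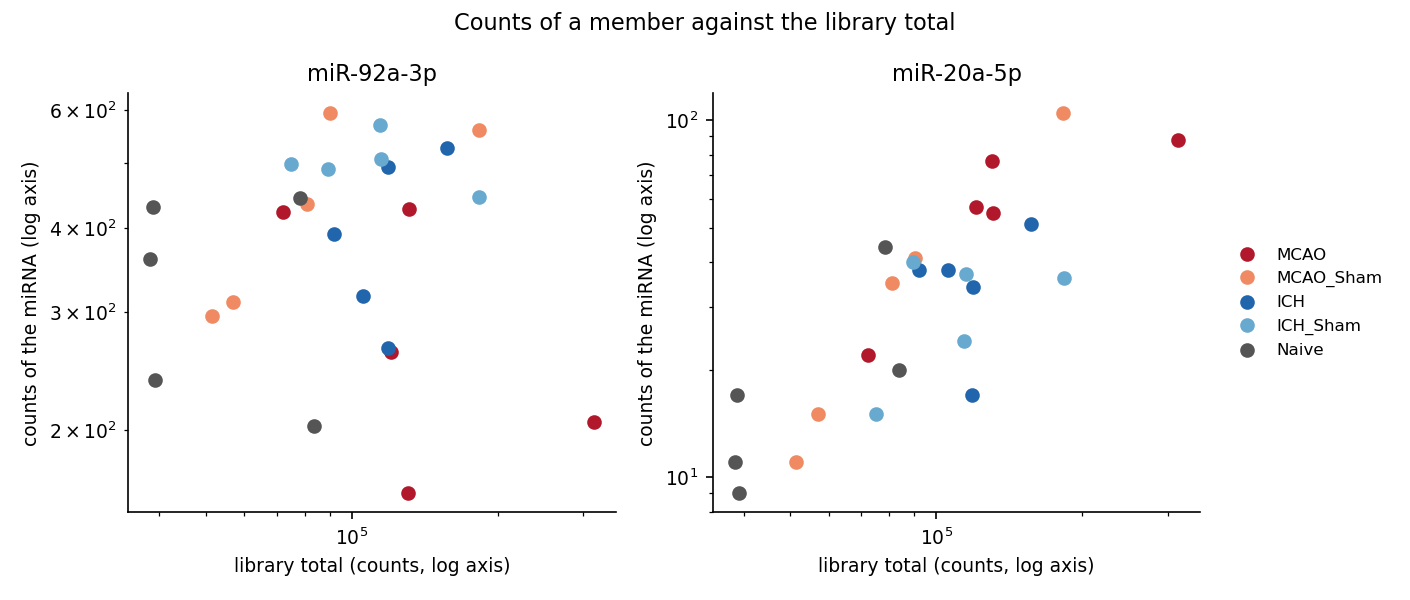
Counts of miR-92a-3p and of miR-20a-5p (vertical axes, log scale) against the library total (horizontal axes, counts, log scale) in the 25 libraries, coloured by group. Counts of miR-20a-5p are higher in deeper libraries and run from 9 to 105, whereas those of miR-92a-3p stay between 161 and 595 and are among the lowest in the deepest library, MCAO 2.

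Against the sham operations miR-92a-3p did not pass. MCAO_Sham libraries 1, 2, 4, 5 and 7 were at 5179, 5123, 2827, 5618 and 6298 CPM. MCAO libraries 2, 3 and 4 lay below all of them, while MCAO 1 and MCAO 5 lay within the sham range. The difference was -0.92 ± 0.33 (adjusted p = 0.0578), in a comparison where 15 of 199 miRNAs passed (7.54%) and none was a member. It passed without MCAO 5 (-1.37, adjusted p = 0.00238) or without MCAO_Sham 4 (-1.08, adjusted p = 0.0362), as well as in DESeq2 (adjusted p = 0.0429), in limma voom (adjusted p = 0.0253), with no count filter (adjusted p = 0.0349) and from run 2 alone (adjusted p = 0.0424). Of the 25 fits that left out 1 library, these 2 alone called miR-92a-3p, and all miRNAs called ran from 2 to 62. DESeq2, limma voom and run 2 alone also called more of the 199 miRNAs here than the main fit. So did the fit with no count filter, which tested 925. With the log2 total as a covariate the difference was -0.51 ± 0.24 (adjusted p = 0.326). With miR-451a relative to miR-23a-3p in its place it was -0.65 ± 0.29 (adjusted p = 0.212).

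The index tags of MCAO, MCAO_Sham and Naive libraries fell into 2 ranges, and the level of miR-92a-3p in MCAO differed between them. In the lower range it averaged 1478 CPM in MCAO (n = 3), 4563 CPM in MCAO_Sham (n = 2) and 5661 CPM in the 1 Naive library. In the upper range it averaged 4427 CPM in MCAO (n = 2), 5307 CPM in MCAO_Sham (n = 3) and 6901 CPM in Naive (n = 4). MCAO was lowest in both ranges. With the range as a block the difference from Naive was -1.22 ± 0.33 (adjusted p = 0.0208) and that from MCAO_Sham -0.93 ± 0.32 (adjusted p = 0.0974). ICH and ICH_Sham each had tags in a range of their own, which cannot be told apart from the group.

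In ICH_Sham libraries 1 to 5 miR-92a-3p was at 3353, 4233, 4714, 4867 and 5870 CPM. ICH libraries were mostly lower, but their highest values exceeded the lowest sham value. The difference of ICH from ICH_Sham was -0.49 ± 0.33 (adjusted p = 0.582). No miRNA of the 199 passed in that comparison with edgeR (0% called), and 20 had an unadjusted p under 0.05 (10.1%), miR-92a-3p not among them. DESeq2 and limma voom called 0 as well. The shams differed from Naive by -0.41 ± 0.33 in MCAO_Sham (adjusted p = 0.572) and -0.53 ± 0.33 in ICH_Sham (adjusted p = 0.407). The sign of both turned positive with the log2 total as a covariate (0.14 and 0.34). The effect of MCAO over its sham and that of ICH over its sham differed by -0.43 ± 0.46 (adjusted p = 0.619), where 2 of 199 miRNAs passed (1.01%) and no member did. In the order of mean levels, MCAO (2658 ± 1802 CPM), ICH (3285 ± 573), ICH_Sham (4607 ± 920), MCAO_Sham (5009 ± 1307) and Naive (6653 ± 2515; SD, n = 5 each), neighbours overlapped.

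**Figure D3:**
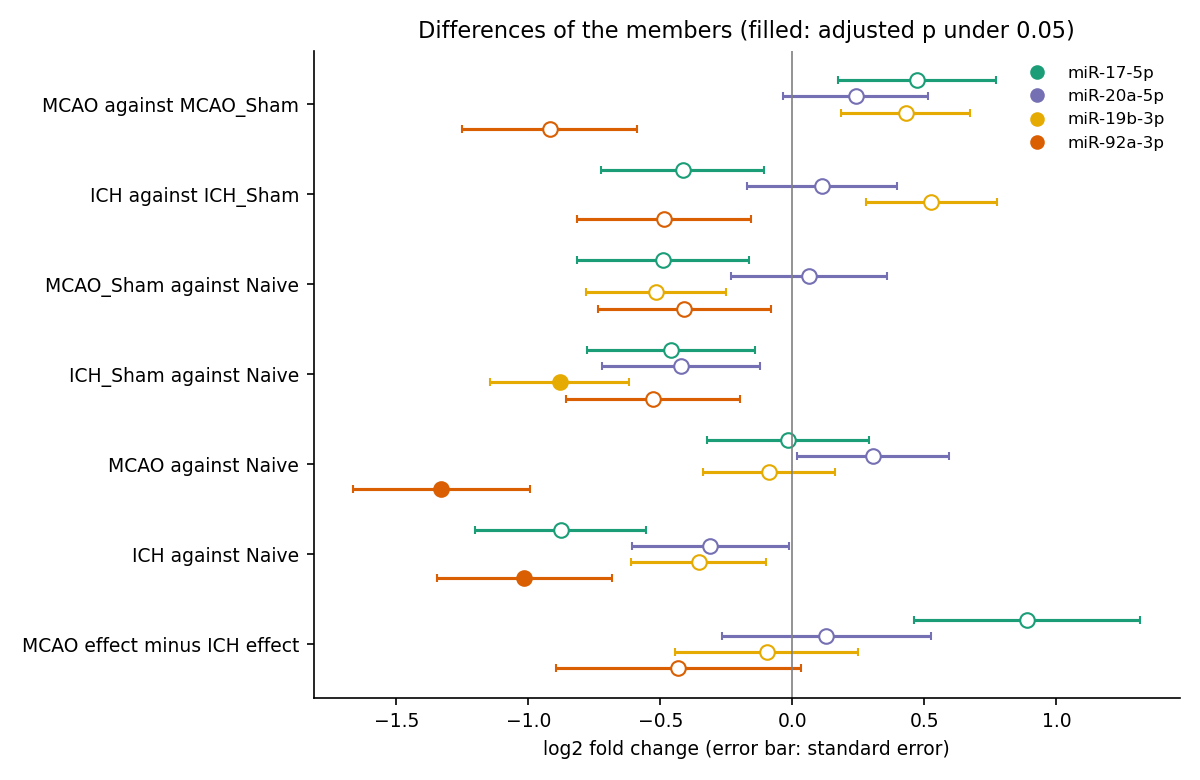
Log2 fold change (horizontal axis) of the 4 members past the count filter in the 7 comparisons, with standard errors; filled points passed at an adjusted p under 0.05. The filled points are miR-92a-3p in MCAO (-1.33) and ICH (-1.02) against Naive, and miR-19b-3p in ICH_Sham against Naive (-0.88).

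Of 6 red cell markers, 4 passed the count filter, and 1 of these 4 passed as lower in each stroke model against Naive. That marker, miR-486-5p, a red cell miRNA listed jointly with miR-3107-5p, fell by 1.31 ± 0.27 in MCAO against Naive (adjusted p = 0.000839), by 1.42 ± 0.27 in ICH against Naive (adjusted p = 0.000384) and by 0.98 ± 0.27 in MCAO against MCAO_Sham (adjusted p = 0.0187). miR-451a, the miRNA most specific to red cells, was at 0.11 ± 0.31 in MCAO (adjusted p = 0.823) and -0.33 ± 0.31 in ICH (adjusted p = 0.519) against Naive. miR-144-3p was at -0.49 ± 0.46 (adjusted p = 0.428) and -1.27 ± 0.50 (adjusted p = 0.0842), and miR-16-5p at 0.01 ± 0.23 (adjusted p = 0.977) and -0.47 ± 0.23 (adjusted p = 0.181), in MCAO and ICH against Naive. The 6 markers, none at 0 in all libraries, summed to 18963 to 32485 CPM in MCAO, 17243 to 26904 CPM in ICH and 40073 to 74263 CPM in Naive. Without miR-486-5p the ranges overlapped, at 5953 to 9579 CPM in MCAO, 2948 to 8137 CPM in ICH and 5847 to 10392 CPM in Naive. With miR-451a relative to miR-23a-3p, a red cell ratio, as a covariate, miR-92a-3p was at -1.10 ± 0.29 in MCAO (adjusted p = 0.0119) and -1.36 ± 0.30 in ICH (adjusted p = 0.00169) against Naive. The denominator, miR-23a-3p, was itself the miRNA most like miR-92a-3p with group means taken off (r = 0.85), so this fit does not adjust for red cell content alone.

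Some markers of other cell types also differed from Naive in both stroke models. Of 3 lymphocyte markers 2 passed the count filter, and miR-150-5p, abundant in mature B and T cells, fell by 1.63 ± 0.27 in MCAO (adjusted p = 0.000109) and by 1.84 ± 0.27 in ICH (adjusted p = 2.77e-05). The other, miR-342-3p, did not pass (-0.80 ± 0.31, adjusted p = 0.0510 in MCAO and -0.86 ± 0.31, adjusted p = 0.0617 in ICH). The lymphocyte markers summed to 2793 to 6360 CPM in MCAO, 2839 to 5377 CPM in ICH and 7798 to 18719 CPM in Naive, with no overlap with Naive. Most of that sum was miR-150-5p, at 7399 to 18152 CPM in Naive, while miR-342-3p overlapped Naive in both models. Singly, 10 of 199 miRNAs (5.03%) had no overlap in MCAO against Naive and 15 (7.54%) in ICH against Naive. Over the 25 libraries miR-150-5p had r = 0.63 with miR-92a-3p, and r = 0.33 with the group means taken off. Of 6 platelet and myeloid markers 5 passed the filter, and of these miR-191-5p alone was called. It fell by 0.62 ± 0.19 in MCAO (adjusted p = 0.0201) and by 0.81 ± 0.19 in ICH (adjusted p = 0.00333). In MCAO miR-223-3p was at 0.28, miR-223-5p at 0.41, miR-142-5p at -0.20 and miR-126a-3p at -0.52. In ICH they were at -0.02, -0.10, -0.27 and -0.40 (adjusted p from 0.0751 to 0.983 over both models). The platelet and myeloid list, in which miR-191-5p and miR-126a-3p were the most abundant, summed to 18741 to 27028 CPM in MCAO, 16880 to 24152 CPM in ICH and 27569 to 39207 CPM in Naive. Of 3 brain-enriched markers past the filter 2 were higher in each model, and of 2 liver markers 0 passed in either. The brain-enriched sums, from 11885 to 16882 CPM in MCAO, 11683 to 14473 CPM in ICH and 7699 to 16861 CPM in Naive, overlapped, as did the liver sums (30416 to 92608, 37971 to 85276 and 37926 to 470912 CPM). None of these 15 markers was at 0 in all libraries, and their part in the difference of miR-92a-3p was not tested.

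Across the 25 libraries the log2 CPM of miR-92a-3p was most like those of miR-423-3p (Pearson's r = 0.90), miR-328-3p (0.87) and miR-361-5p (0.86). miR-486-5p followed at place 4 of 198 (0.81). Within its own cluster r was -0.02 for miR-17-5p, -0.14 for miR-19b-3p and -0.35 for miR-20a-5p, and for miR-451a it was -0.22. With the group means taken off, the 3 most similar were miR-23a-3p (0.85), miR-23b-3p (0.82) and miR-361-5p (0.81). These values describe libraries that share depth and scaling.

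Of the miR-17 seed family, whose known targets include cell cycle inhibitors such as Cdkn1a, the members miR-17-5p and miR-20a-5p varied together. miR-17-5p and miR-20a-5p were each other's most similar miRNA among the 198 others (r = 0.66 over 25 libraries). The log2 ratio of their counts, miR-20a-5p over miR-17-5p, averaged 0.93 ± 0.46 (SD, n = 25). Next in likeness were miR-429-3p (0.60), miR-185-5p (0.57) and miR-200c-3p (0.53) for miR-17-5p, and miR-29b-3p (0.62), miR-200b-3p (0.58) and miR-93-5p (0.57) for miR-20a-5p. With the group means taken off, miR-17-5p and miR-20a-5p had r = 0.67, and each stood at place 2 for the other. The nearest was then miR-429-3p (0.70) for miR-17-5p and miR-29b-3p (0.68) for miR-20a-5p. miR-93-5p, a non-member with the same seed, had r = 0.44 with miR-17-5p and 0.57 with miR-20a-5p over the 25 libraries. With the group means taken off these were 0.45 and 0.40. The sequences of miR-17-5p and miR-20a-5p are near-identical, and the part of reads that match both in their likeness was not tested.

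miR-17-5p passed in no comparison. Its level was 252, 195, 268, 298 and 127 CPM in MCAO libraries 1 to 5. It was 150, 141, 176, 76 and 254 CPM in MCAO_Sham libraries 1, 2, 4, 5 and 7. The MCAO values were mostly higher and the groups overlapped, with a difference of 0.47 ± 0.30 (adjusted p = 0.245). In ICH libraries 1 to 5 it was 60, 159, 169, 132 and 111 CPM, and in ICH_Sham libraries 1 to 5 136, 175, 182, 178 and 176 CPM. All but the lowest sham value exceeded every ICH value, and the difference was -0.42 ± 0.31 (adjusted p = 0.610). The 2 effects differed by 0.89 ± 0.43 (adjusted p = 0.297).

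Naive libraries 1 to 5 held 294, 200, 77, 278 and 295 CPM of miR-17-5p. Naive 3, with 3 counts, lay below the rest. The difference of ICH from Naive was -0.88 ± 0.32 (adjusted p = 0.0668), and without Naive 3 it passed (-1.09, adjusted p = 0.0166), as it did without ICH 3 (-1.05, adjusted p = 0.0391), MCAO 5 (-0.90, adjusted p = 0.0452) or MCAO_Sham 7 (-0.90, adjusted p = 0.0485). MCAO 5 and MCAO_Sham 7 lie outside this comparison, so leaving them out keeps all ICH and Naive libraries in place. Of the 25 fits that left out 1 library, these 4 alone called the difference. DESeq2 called it too (-0.90, adjusted p = 0.0393). MCAO was at -0.02 ± 0.31 (adjusted p = 0.977), MCAO_Sham at -0.49 ± 0.33 (adjusted p = 0.537) and ICH_Sham at -0.46 ± 0.32 (adjusted p = 0.482) against Naive.

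miR-20a-5p, the most abundant member after miR-92a-3p, likewise passed in no comparison. It was at 446, 441, 591, 471 and 280 CPM in MCAO libraries 1 to 5. It was at 250, 412, 529, 208.8 and 434 CPM in MCAO_Sham libraries 1, 2, 4, 5 and 7. These ranges overlapped widely, and the difference was 0.24 ± 0.27 (adjusted p = 0.550; 95% interval -0.32 to 0.80). ICH libraries lay between 170 and 377 CPM, ICH_Sham libraries between 176 and 397 CPM and Naive libraries between 231 and 562 CPM. ICH differed from ICH_Sham by 0.11 ± 0.28 (adjusted p = 0.902; 95% interval -0.47 to 0.69). Against Naive the differences ran from -0.42 in ICH_Sham to 0.30 in MCAO (adjusted p from 0.431 to 0.937), and the MCAO one turned to -0.14 with the log2 total as a covariate.

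miR-19b-3p, of the seed family known to drive the lymphoma-promoting activity of the cluster in mice, was lower in ICH_Sham than in Naive. It was at 181, 100, 223.3, 188 and 94 CPM in ICH_Sham libraries 1 to 5. In Naive libraries 1 to 5 it was at 243, 316, 231, 371 and 317 CPM. The highest sham library lay below the lowest Naive library, a lack of overlap that 17 of the 199 miRNAs showed in this comparison (8.54%). The level fell by 0.88 ± 0.26 on the log2 scale (adjusted p = 0.0349), a 1.84-fold lower level, where 13 of 199 miRNAs passed (6.53%) and 6 were lower (3.02%).

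The counts behind miR-19b-3p were few, 8 to 27 in ICH_Sham and 9 to 19 in Naive. Its call was lost without ICH_Sham 2, ICH_Sham 5, Naive 2, Naive 4 or Naive 5 (adjusted p from 0.0612 to 0.111), with the log2 total as a covariate (-1.02, adjusted p = 0.0664) and without the 3 libraries of lowest TMM factor (-0.90, adjusted p = 0.0983). miR-486-5p was lower in the same comparison (-0.89 ± 0.27, adjusted p = 0.0349) and miR-451a was at -0.54 ± 0.31 (adjusted p = 0.376). The lymphocyte miRNA miR-150-5p fell by 1.15 ± 0.26 (adjusted p = 0.00752), while miR-342-3p was at -0.61 ± 0.31 (adjusted p = 0.304). The summed red cell markers ran from 22518 to 38806 CPM in ICH_Sham, below the 40073 CPM of the lowest Naive library, and without miR-486-5p from 4322 to 5610 CPM, below 5847 CPM. The part of these markers in the difference was not tested. With the red cell ratio as a covariate miR-19b-3p was at -0.79 (adjusted p = 0.0765).

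In the stroke models miR-19b-3p did not pass. It was at 373, 241, 276, 306 and 178 CPM in MCAO libraries 1 to 5. It was at 200, 165, 232, 208.8 and 211.7 CPM in MCAO_Sham libraries 1, 2, 4, 5 and 7. MCAO libraries 1 to 4 lay above every sham library and MCAO 5 lay below all but MCAO_Sham 2, and the difference was 0.43 ± 0.24 (adjusted p = 0.204). In ICH libraries 1 to 5 it was at 220, 224.4, 189, 299 and 205.3 CPM, overlapping ICH_Sham, with a difference of 0.53 ± 0.25 (unadjusted p = 0.0423, adjusted p = 0.462, edgeR). Against Naive it was at -0.09 ± 0.25 in MCAO (adjusted p = 0.823), -0.36 ± 0.25 in ICH (adjusted p = 0.369) and -0.52 ± 0.26 in MCAO_Sham (adjusted p = 0.510; 1 of 199 miRNAs, or 0.503%, passed there). Its nearest miRNAs over the 25 libraries were miR-103-3p (r = 0.53), miR-15b-3p (0.48) and miR-16-5p (0.47).

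miR-19a-3p was read far less often than miR-19b-3p in every group. MCAO libraries summed to 28 counts and their shams to 16, ICH libraries to 26 and their shams to 13, and Naive libraries to 10. Relative to the summed counts of miR-19b-3p it stood at 0.155 in both MCAO and MCAO_Sham, 0.182 and 0.144 in ICH and its sham, and 0.130 in Naive. The CPM ratio of MCAO to MCAO_Sham was 1.32 with an exact 95% interval of 0.687 to 2.60, and that of ICH to ICH_Sham 1.84 with an interval of 0.912 to 3.90. For ICH_Sham against Naive, where miR-19b-3p was lower, it was 0.615 with an interval of 0.249 to 1.57. All 3 intervals include equal levels, and they cover counting error only.

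miR-18a-5p, a member that the RNA-binding protein hnRNP A1 helps to process, was close to the detection limit. It had 7 counts over the MCAO libraries, 3 over MCAO_Sham, 6 each over ICH and ICH_Sham and 1 over Naive. Against MCAO_Sham, the CPM ratio in MCAO was 1.75 with a 95% interval of 0.400 to 10.5, and no difference was detectable at this depth.

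miR-17-3p, the arm opposite miR-17-5p on the same hairpin, was almost missing from MCAO. It had 1, 0, 0, 0 and 0 counts in MCAO libraries 1 to 5. It had 1, 2, 5, 0 and 0 counts in MCAO_Sham libraries 1, 2, 4, 5 and 7, and 1, 3, 0, 2 and 2 in Naive libraries 1 to 5. ICH summed to 3 counts and ICH_Sham to 4. The CPM ratio of MCAO to Naive was 0.0507 with an exact 95% interval of 0.00114 to 0.378, and in a fit without the count filter, over 925 miRNAs, edgeR's quasi-likelihood test gave adjusted p = 0.0287, with 43 miRNAs called. The ratio of MCAO to MCAO_Sham was 0.0939 with an interval of 0.00212 to 0.701, and adjusted p = 0.236 in that fit. Against Naive the ratio was also low in ICH (0.163, interval 0.0279 to 0.680; adjusted p = 0.265) and ICH_Sham (0.237, interval 0.0521 to 0.883; adjusted p = 0.599). All these intervals cover counting error only and leave out the spread between libraries. Summed counts of miR-17-5p per count of miR-17-3p were 151 in MCAO and 10.5 in its sham. They were 25.7 in ICH, 23.5 in its sham and 7.88 in Naive. In that order they rest on 1, 8, 3, 4 and 8 counts of miR-17-3p. In libraries with at least 10 counts over both arms, the log2 ratio (a constant added to each count) ran from 4.39 to 6.30 in MCAO. It ran from 2.32 to 5.61 in MCAO_Sham, 3.27 to 5.55 in ICH and 2.89 to 5.49 in ICH_Sham, overlapping MCAO. In Naive it ran from 1.84 to 3.97, below MCAO. Whether the arms kept a fixed ratio was not tested.

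The ratio of miR-92a-3p to miR-17-5p, which does not depend on how libraries are scaled, was lowest in MCAO. Its log2 value was 3.77, 2.39, 2.19, 2.85 and 5.33 in MCAO libraries 1 to 5. MCAO 1 to 4 lay below all 20 libraries of the other groups, whose values ran from 3.98 in MCAO_Sham 4 to 6.09 in Naive 3, while MCAO 5 lay among them. In summed counts there were 9.80 reads of miR-92a-3p per read of miR-17-5p in MCAO, and 25.9 (ICH), 26.2 (MCAO_Sham), 26.6 (Naive) and 26.7 (ICH_Sham) elsewhere. The mean log2 ratio was 3.30 ± 1.29 in MCAO, against 4.72 ± 0.48 in ICH, 4.96 ± 0.76 and 4.71 ± 0.18 in MCAO_Sham and ICH_Sham, and 4.84 ± 0.82 in Naive (SD, n = 5). It may still carry a relation to depth, as r with the log2 total was -0.82 for miR-92a-3p and 0.04 for miR-17-5p. MCAO 1 to 4 held 120611 to 315646 counts and MCAO 5 held 72222. MCAO_Sham 4 held 182763 counts, while ICH_Sham 1 held 183112 with a log2 ratio of 4.59. This ratio is given as a description, without a test, and the part of depth in it was not tested.

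**Figure D4:**
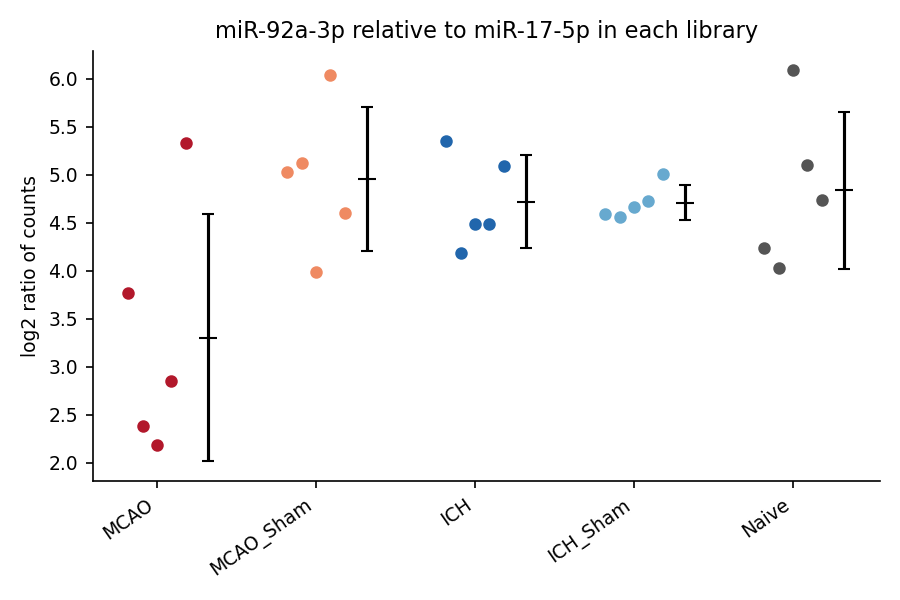
Log2 ratio of the counts of miR-92a-3p to those of miR-17-5p (vertical axis) in each library by group, with mean and SD (n = 5). MCAO libraries 1 to 4 lie between 2.19 and 3.77, below every library of the other groups, and MCAO 5 lies at 5.33. The ratio is not adjusted for the library total.

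As a share of all counts, the 7 members took 0.357% ± 0.201 in MCAO and 0.608% ± 0.122 in its sham, 0.413% ± 0.0961 in ICH and 0.545% ± 0.165 in its sham, and 0.786% ± 0.359 in Naive (SD, n = 5). Without miR-92a-3p the order of groups was another one. The other 6 members took 0.0930% in MCAO and 0.0939% in Naive, with 0.0822% in MCAO_Sham, 0.0730% in ICH and 0.0654% in ICH_Sham. The median difference of the 4 tested members from Naive was -0.05 in MCAO and -0.62 in ICH, beside 0.02 and 0.00 over all 199 miRNAs. Against the shams it was 0.33 in MCAO and -0.15 in ICH, beside 0.00 and 0.02.

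The paralogous clusters hold miRNAs of the same seed families. miR-25-3p carries the seed of miR-92a-3p and comes from the miR-106b-25 cluster on chromosome 5.
miR-25-3p: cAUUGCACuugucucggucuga
It was abundant, with 39018 counts, and was at -0.10 ± 0.19 in MCAO (adjusted p = 0.726) and -0.33 ± 0.19 in ICH (adjusted p = 0.277) against Naive, where miR-92a-3p passed as lower. Whether the 2 miRNAs differ in this was not tested. Over the 25 libraries their log2 CPM had r = -0.02.

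Of 4 miR-106b-25 miRNAs, 3 passed the count filter. miR-106b-3p fell in ICH_Sham (-0.94 ± 0.25, adjusted p = 0.0175) and in ICH (-0.73 ± 0.25, adjusted p = 0.0497) against Naive, and no other of these tests passed. Their median was -0.62 in ICH_Sham and -0.33 in ICH against Naive, and 0.00 in MCAO against MCAO_Sham, beside medians of -0.05, 0.00 and 0.00 over all 199 miRNAs. The 4 measured miRNAs of the miR-106a-363 cluster on chromosome X were under the filter, with 11 counts of miR-106a-5p, 9 of miR-18b-5p, 38 of miR-20b-5p and 39 of miR-363-3p.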

How the data were processed

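Per the labels' protocols, RNA was extracted from 200 µL of serum and libraries were made from a fixed volume of input, not a fixed amount of RNA. The submitters' processing notes name Bowtie 0.12.9. For the genome build, miRNA release and reads with several matches, the choice made is not given in the sources used here. Raw counts of reads per mature miRNA were deposited by the authors in 50 columns, and the 2 columns of a library with the same index tag were summed as repeat runs. Runs differed by about sampling noise (0.792 to 1.27 as chi-square over its degrees of freedom). Totals ranged from 38393 to 315646 counts. The reads carry no molecular identifiers.

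edgeR's filterByExpr (minimum count 10) kept 199 miRNAs with 99.5% of all counts. One fit of all 25 libraries, with TMM factors and a mean per group, gave 7 comparisons by the robust quasi-likelihood test (20 residual degrees of freedom, Benjamini-Hochberg threshold 0.05). The standard error is the size of the log2 fold change divided by the root of F. The procedure was tested on simulated counts with known changes in MCAO and no relation of CPM to the library total. That test therefore cannot speak to the relation of miR-92a-3p to depth. Members under the filter have exact 95% intervals for ratios of summed counts, which cover counting error only. Every member was named, with the 3 most similar miRNAs by Pearson's r of log2 CPM (prior count 2), other arms, paralogous clusters and cell markers. The members and lists were chosen with earlier results of these data known. Main fits used edgeR 4.0.16 in R 4.3.3, alternatives DESeq2 1.42.0 and limma 3.58.1, and plots matplotlib 3.10.9 under Python 3.11.15.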

Additional observations from a re-analysis of the deposited data

Results flagged for a closer look

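Among 25 sets of 5 libraries (5 levels or shares in each of 5 groups), 1 held a library far from the rest. In ICH_Sham, miR-17-5p was at 136 CPM in ICH_Sham 1, where the other 4 libraries lay at 175 CPM or above, and the gap made up 0.857 of the range, above Dixon's critical value for 5 values. Chance gives such a flag in about 1 of 20 sets.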

How the results depend on the processing

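For the 4 members past the count filter, 28 differences were recomputed under 1076 alternatives, of which 1011 kept both the sign and the side of the threshold, 22 lost a call, 12 gained one and 31 changed sign. Many alternatives left out 1 library, often of a group outside the comparison, which keeps the compared libraries in place. None of the values that changed sign had passed. With the log2 library total as a covariate, miR-92a-3p turned to 0.14 in MCAO_Sham and 0.34 in ICH_Sham against Naive, and miR-20a-5p to -0.14 in MCAO and -0.19 in MCAO_Sham against Naive and -0.046 in the difference between the effects. miR-20a-5p in MCAO_Sham against Naive (0.06) also turned to -0.049 with the replicate block, -0.11 with the tag block, -0.16 from run 1 alone and -0.025 without the 3 libraries of lowest TMM factor. In ICH against ICH_Sham it turned to -0.020 from run 2 alone, and in the difference between the effects to -0.11 with library totals alone and -0.0099 with the red cell covariate. miR-17-5p in MCAO against Naive (-0.02) turned to 0.10 with no count filter, 0.0080 with limma voom and 0.21 from run 1 alone. miR-19b-3p turned to 0.039 in MCAO against Naive with no count filter and to 0.38 in the difference between the effects from run 1 alone. Leaving out 1 library turned the sign in 14 fits, with ranges of -0.27 to 0.042 for miR-17-5p in MCAO and -0.17 to 0.27 for miR-20a-5p in MCAO_Sham against Naive, -0.0066 to 0.29 for miR-20a-5p in ICH against ICH_Sham, and -0.063 to 0.30 for miR-20a-5p and -0.26 to 0.034 for miR-19b-3p in the difference between the effects. The calls of miR-92a-3p against Naive ended with the log2 total as a covariate, and the ICH call also with library totals alone (adjusted p = 0.0966) and limma voom (adjusted p = 0.0617). The call of miR-19b-3p in ICH_Sham also ended with library totals alone (adjusted p = 0.111), with the groups of the comparison alone (0.0753), from run 1 (0.231) or run 2 (0.202) alone, and without a count filter (0.512), where 925 miRNAs were tested. The cause was not tested. Shares of counts were labeled as moved only where a group mean shifted by its SD or more, and 0 of 40 alternatives did. Leaving out 1 library cannot shift a mean that far, so those alternatives could not show a move.

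Counts of called miRNAs among all tested moved more. For MCAO against MCAO_Sham the count of 15 became 5 with library totals alone, 25 with no count filter, 42 with DESeq2, 29 with limma voom, 3 with a block for the index tag range, 2 with the red cell ratio as a covariate, 27 from run 2 alone, 2 with the groups of the comparison alone, 23 without the members in the TMM factors, 2 with the log2 total as a covariate and 2 without the 3 libraries of lowest TMM factor. For MCAO against Naive the count of 61 became 27, 26, 30, 36, 2 and 29 with library totals alone, the tag block, the red cell covariate, the groups alone, the log2 total and without those 3 libraries. For ICH against Naive the count of 29 became 44 with the red cell covariate, 17 from run 1 alone and 18 with the groups alone. MCAO_Sham against Naive went from 1 to 0 with library totals alone and with the tag block, and ICH_Sham against Naive from 13 to 1 with the log2 total. The difference between the effects went from 2 to 1 from run 1 alone and to 0 with the red cell covariate, from run 2 alone, with the groups alone and without those 3 libraries. Leaving out 1 library gave 2 to 62 calls for MCAO against MCAO_Sham, 0 to 1 for ICH against ICH_Sham, 0 to 1 for MCAO_Sham, 10 to 16 for ICH_Sham, 29 to 74 for MCAO and 15 to 35 for ICH against Naive, and 0 to 9 for the difference between the effects.

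Scaling by library totals alone shifted the median log2 difference of all 199 miRNAs by up to 0.22 (MCAO effect minus ICH effect, -0.22), and leaving out the count filter by up to 0.14. A replicate block gave 19, 0, 1, 13, 58, 28 and 2 calls in the 7 comparisons and changed no call of a member. Whether the replicate numbers pair the libraries was not settled. In ICH_Sham against Naive same-numbered libraries correlated at 0.0190 to 0.263, with a mean of 0.196 against -0.0503 for other numbers. In the other pairwise comparisons the lowest correlation of same-numbered libraries was below 0. At most 2 libraries of a comparison correlated best with their own number. The 3 settings with the log2 total, without the members in TMM and without 3 libraries were chosen after seeing the data. Depth limits the rarer members, with 23 to 93 counts in all.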
